A study of Homo sapiens with 24 samples.

Results

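The SRC family kinases are cytoplasmic tyrosine kinases, and 7 of them, LCK, LYN, FYN, BLK, FGR, YES1 and SRC, were taken from the microarray table by gene symbol. Each of the 7 symbols stood in 1 of the 25575 rows of the table (25161 symbols), so that no choice between rows was needed. The set was chosen by the measured falls of LCK in DG-75 with AZD5153 alone or combined with Entospletinib, and LCK in DG-75 is therefore described here without a test. The arrays were Human Clariom D arrays, whose values are log2 expression levels after RMA, a background correction, normalization and summary of the probes of a gene. A difference of 1 on this scale is a 2-fold difference, and no level is set against that of another gene, because the probes differ.

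There were 24 arrays, 3 for each of 8 groups. SU-DHL-4 is an established line of diffuse large B-cell lymphoma and DG-75 is an established line of Burkitt lymphoma. For 72 h, cells of each line received DMSO as the solvent control, Entospletinib (Ento) at 1 µM, AZD5153 (AZD) at 0.01 µM or the combination of both doses (Ento+AZD). Entospletinib inhibits the tyrosine kinase SYK, and AZD5153 is a bivalent bromodomain inhibitor. Each disease was represented by a single cell line. The labels do not say whether replicates 1 to 3 came from separate cultures, and the methods speak of biologically independent samples only for the study as a whole. The p-values measure the spread between these arrays, which would be technical if a culture was shared.

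SRC family kinases are anchored to the inner face of the membrane by fatty acids and pass signals on from receptors that have no kinase of their own. In B cells LYN, FYN and BLK phosphorylate the tails of CD79A and CD79B after the B-cell receptor has bound antigen, which recruits SYK, the target of Entospletinib. LCK does the corresponding work at the T-cell receptor and is also made in some B-cell lymphomas and leukaemias. FGR is best known from myeloid cells and from B cells carrying Epstein-Barr virus, while YES1 and SRC are made in most tissues. CSK holds the family in check by phosphorylating the inhibitory tyrosine near the C-terminus, and CD45 (PTPRC) removes that phosphate.

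LCK in DG-75 with Ento+AZD had the largest difference from DMSO of the 7 kinases, and its start regions are shown for that reason. In the RefSeq table used here (GRCh38.p14), 4 of the 7 kinases were matched, with 9 promoter windows in all. LCK has 2 of them, which start 22856 bases apart on the plus strand of chromosome 1, at chr1:32251015-32251264 (far) and chr1:32273871-32274120 (near). Each line below gives the 250 bases before the start of transcription, 5′ to 3′, with every AGGAAG in capitals, the purine-rich core that ETS factors bind.
LCK far window: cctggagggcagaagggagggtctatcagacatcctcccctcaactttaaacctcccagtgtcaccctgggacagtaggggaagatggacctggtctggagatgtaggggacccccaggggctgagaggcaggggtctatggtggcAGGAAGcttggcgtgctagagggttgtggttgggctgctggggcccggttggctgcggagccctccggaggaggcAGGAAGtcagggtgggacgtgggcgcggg
LCK near window: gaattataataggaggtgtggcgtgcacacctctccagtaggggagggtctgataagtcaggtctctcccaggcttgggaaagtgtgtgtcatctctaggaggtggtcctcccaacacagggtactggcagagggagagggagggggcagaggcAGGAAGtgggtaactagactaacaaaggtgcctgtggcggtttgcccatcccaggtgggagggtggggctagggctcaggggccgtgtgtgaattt
AGGAAG, searched on both strands, stood at 2 places in the far and at 1 place in the near window, in 1 of the 7 windows of the other kinases (FGR, at 2 places) and in 28.7% of all 35116 windows. GGGCGG, the GC box that SP1 binds, was in neither LCK window, in 5 of the 7 windows of the other kinases and in 42.6% of all windows. CACGTG, the E-box that MYC binds, and TATAAA, the TATA box, were in none of the 9 windows, against 6.34% and 10.7% of all windows. The GC content was 64.4% in the far and 57.6% in the near LCK window, with a median of 58% over all windows. A match is a description of these letters and not a site in use. The table has 1 value for LCK, so transcripts from the 2 starts were not separated.

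The arrays resembled each other closely, with correlations between replicates of 0.981 to 0.992 and array medians of 4.89 to 5.14. The B-cell markers MS4A1, CD79A, CD79B, PAX5 and CD22 lay above the array median on all 24 arrays. Of 6 T-cell markers only CD7 lay above it, and CD3D, CD3E, CD3G, CD2 and CD8A read 1.24 to 4.72. On each array 1 of 4 NK-cell markers, 1 to 3 of 5 myeloid markers and 2 or 3 of 4 stroma markers also lay above the median. A level above the array median therefore does not mark a cell type by itself. The table holds no detection value, so a low level such as those of YES1 and SRC (2.34 to 4.57) cannot be sorted into present or absent transcripts.

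**Figure D1:**
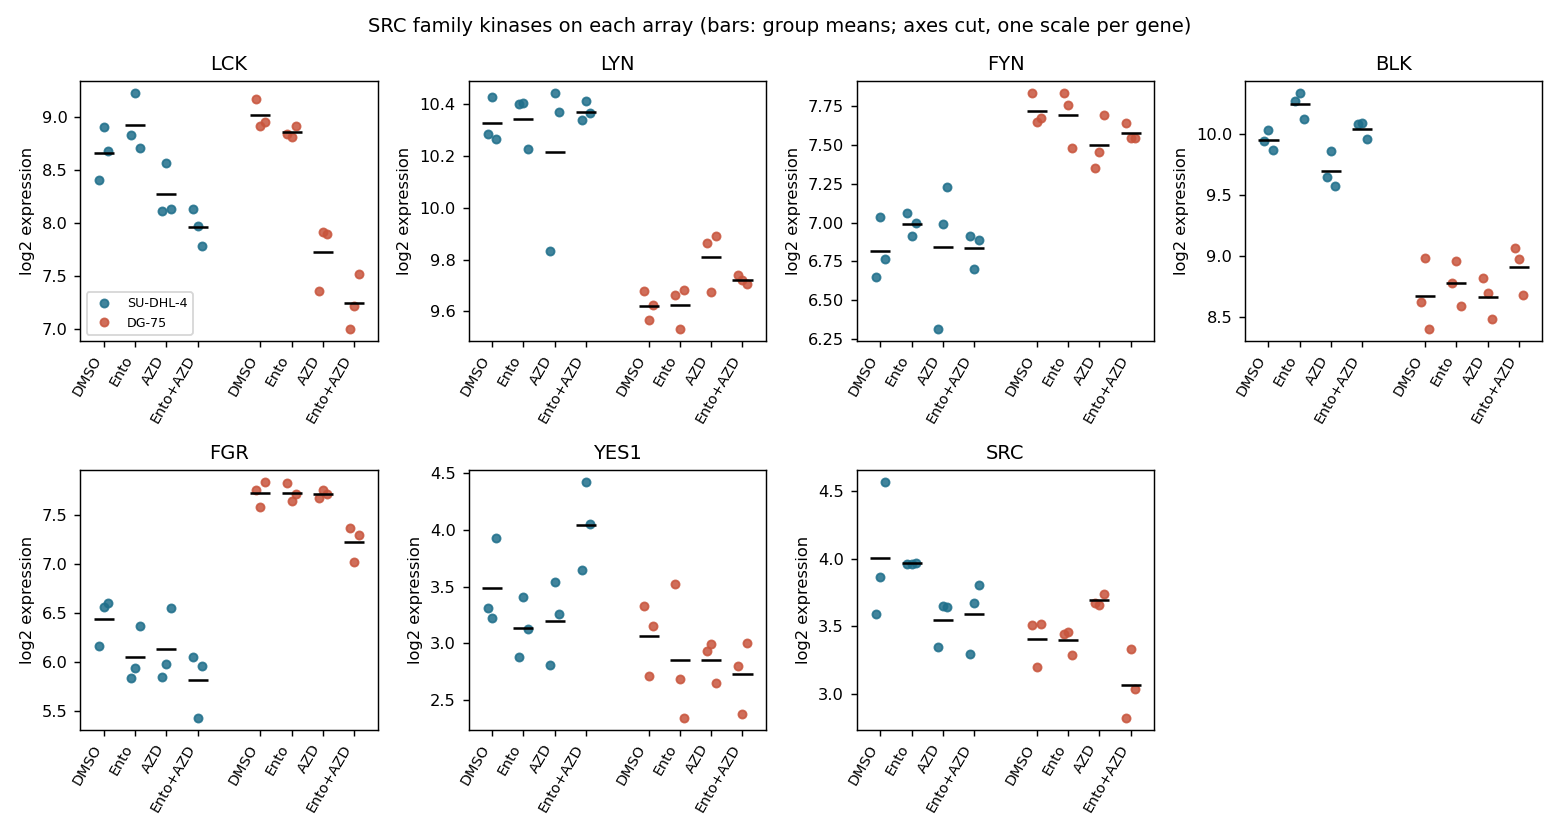
Log2 expression (vertical axes, one scale per gene, not starting at 0) of the 7 kinases on each of the 24 arrays, by treatment and line, with bars at the group means of 3 arrays. LCK in DG-75 lies at 8.92 to 9.18 with DMSO and at 7.003 to 7.52 with Ento+AZD, while LYN, FYN and BLK are set apart mainly by line.

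LCK was lower in DG-75 with AZD and lowest with Ento+AZD. In DG-75 the LCK level was 9.18, 8.92 and 8.96 with DMSO and 8.85, 8.81 and 8.91 with Ento. It was 7.36, 7.92 and 7.90 with AZD and 7.003, 7.22 and 7.52 with Ento+AZD. All 6 arrays that had received AZD lay below all 6 that had not, and the AZD and Ento+AZD arrays overlapped. The mean was 9.02 ± 0.14 (SD, n = 3) with DMSO, 7.73 ± 0.32 (SD, n = 3) with AZD and 7.25 ± 0.26 (SD, n = 3) with Ento+AZD. In these bulk samples, fewer cells making LCK and less LCK RNA per cell cannot be told apart. The summed level of the 5 B-cell markers ran from 44.5 to 45.9 in the DMSO arrays of DG-75 and from 46.9 to 49.0 in those with AZD or Ento+AZD, and from 52.3 to 54.4 with DMSO and 53.4 to 54.6 with Ento+AZD in SU-DHL-4. The part of this shift in the LCK values was not tested.

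The change of LCK in DG-75 was -1.29 with AZD (95% CI -1.67 to -0.91), a 2.45-fold lower level, and -1.77 with Ento+AZD (95% CI -2.15 to -1.39), a 3.41-fold lower level. With Ento alone it was -0.16 (95% CI -0.54 to 0.22). Ento+AZD differed from Ento by -1.61 (95% CI -1.99 to -1.23) and from AZD by -0.48 (95% CI -0.86 to -0.10). The sum of the single-agent changes left -0.32 (95% CI -0.85 to 0.22) of the Ento+AZD change over. The comparisons with DMSO share the same 3 DMSO arrays. These values chose the family, and they are given without a test. Their intervals show the spread between arrays and do not test any difference, that from AZD alone included.

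In SU-DHL-4 LCK was also lowest with Ento+AZD. Its level there was 8.41, 8.91 and 8.68 with DMSO and 8.84, 9.23 and 8.71 with Ento. It was 8.12, 8.57 and 8.14 with AZD and 8.13, 7.98 and 7.79 with Ento+AZD. The Ento+AZD arrays lay below all DMSO and all Ento arrays, whereas the AZD arrays overlapped those with DMSO. With Ento+AZD the change was -0.70 (SE 0.16, 95% CI -1.05 to -0.35, limma adjusted p = 0.0439), lower in 3 of 3 arrays, past the adjusted p threshold but short of the 2-fold change required for a call. Over 14 alternative settings this adjusted p ran from 0.00725 to 0.22, and it was below 0.05 in 5 of them. Among those 5, the omission of the minimum fold change repeats the main fit, with the same adjusted p of 0.0439.

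Against Ento alone, the LCK difference of Ento+AZD in SU-DHL-4 was -0.96 and missed the threshold (95% CI -1.31 to -0.61, limma adjusted p = 0.0551). Over 14 alternative settings this adjusted p ran from 0.00535 to 0.304, and it was below 0.05 in 3 of them. The change with AZD alone was -0.39 (95% CI -0.74 to -0.04, adjusted p = 0.377) and with Ento alone 0.26 (95% CI -0.09 to 0.61, adjusted p = 0.688). Ento+AZD differed from AZD by -0.31 (adjusted p = 0.764). The remainder over the sum of the single-agent changes was -0.57 (95% CI -1.06 to -0.07, adjusted p = 0.96). SU-DHL-4 minus DG-75, the response of LCK differed by 0.90 with AZD (95% CI 0.41 to 1.39) and by 1.07 with Ento+AZD (95% CI 0.58 to 1.56), given without a test.

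Ordered by their mean LCK level, the 8 groups ran from DG-75 with DMSO (9.02), SU-DHL-4 with Ento (8.93), DG-75 with Ento (8.86) and SU-DHL-4 with DMSO (8.67) to SU-DHL-4 with AZD (8.27) and Ento+AZD (7.97), then DG-75 with AZD (7.73) and Ento+AZD (7.25). The ranges of each group and the next in this order overlapped. The 12 arrays of DG-75 spanned 2.17 and those of SU-DHL-4 spanned 1.44. In the DMSO arrays LCK differed by -0.35 between SU-DHL-4 and DG-75 (95% CI -0.70 to -0.01), and the highest array of SU-DHL-4 lay just under the lowest of DG-75.

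None of the kinases tested in DG-75 was called with treatment, where a call is a limma adjusted p under 0.05 with a change over 2-fold. LCK in DG-75 chose the set and is left out of the counts of that line. Of the other 6 kinases, 0 were called with Ento, with AZD or with Ento+AZD against DMSO in DG-75, in comparisons that called 0.00391%, 0.18% and 0.833% of all rows. Over the alternatives that kept the minimum fold change, the number of rows called ran from 0 to 155 with AZD, against 46, and from 0 to 272 with Ento+AZD, against 213, and the latter was 0 without DG-75 DMSO replicate 1. At an unadjusted p under 0.05 stood 0 of 6 with Ento, 0 of 6 with AZD and 1 of 6 with Ento+AZD (FGR), against 2.81%, 13.8% and 16% of all rows.

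In SU-DHL-4 0 of 7 kinases were called with any treatment against DMSO. The share of all rows called there was 0.0508% with Ento, 0.18% with AZD and 1.19% with Ento+AZD, and the last was 304 rows with the replicate number in the fit and 45 without it. Over the alternatives that kept the minimum fold change, the rows called ran from 1 to 32 with Ento, against 13. With AZD they ran from 0 to 119, against 46, the highest without SU-DHL-4 AZD replicate 2. LCK was the member past the adjusted p at any fold with Ento+AZD, where 2.36% of all rows were. At an unadjusted p under 0.05 stood 1 of 7 with Ento (BLK), 2 of 7 with AZD (LCK and SRC) and 4 of 7 with Ento+AZD (LCK, FGR, YES1 and SRC), against 8.59%, 11.5% and 14% of all rows.

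**Figure D2:**
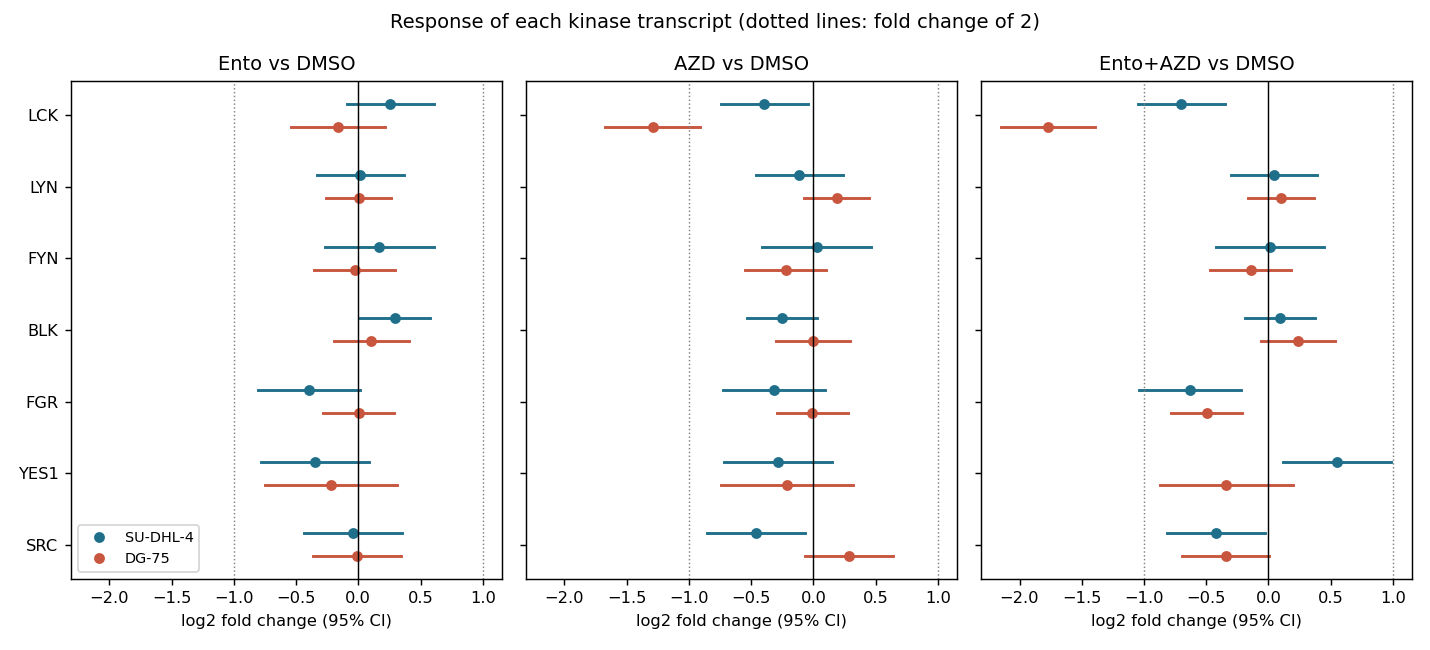
Log2 fold change against DMSO (horizontal axes) of the 7 kinases with Ento, AZD and Ento+AZD; points are limma estimates from 3 arrays a group, lines are 95% confidence intervals, and colours mark the lines. LCK in DG-75 stands at -1.29 with AZD and -1.77 with Ento+AZD.

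LYN, the main SRC family kinase of B cells, both starts and restrains signals of the B-cell receptor, and none of its changes with treatment passed the test. In SU-DHL-4 it read 10.28, 10.43 and 10.27 with DMSO and 10.34, 10.41 and 10.36 with Ento+AZD. In DG-75 it read 9.68, 9.57 and 9.62 with DMSO and 9.74, 9.72 and 9.71 with Ento+AZD. The groups overlapped in SU-DHL-4 and stood just apart in DG-75. The Ento+AZD change was 0.04 in SU-DHL-4 (95% CI -0.30 to 0.39, adjusted p = 0.942) and 0.10 in DG-75 (95% CI -0.16 to 0.36, adjusted p = 0.754). AZD alone gave 0.19 in DG-75 (95% CI -0.07 to 0.45, adjusted p = 0.542) with 9.86, 9.67 and 9.89. In SU-DHL-4 the first AZD array stood low, at 9.83 against 10.44 and 10.37. LYN spanned 0.36 over the 12 DG-75 arrays, the narrowest span of the 7 kinases in that line, and 0.61 in SU-DHL-4.

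In the DMSO arrays LYN was higher in SU-DHL-4, without overlap, by 0.70 (SE 0.13, 95% CI 0.43 to 0.98, limma adjusted p = 0.000595), a 1.63-fold difference. It passed the adjusted p and fell short of the 2-fold minimum.

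BLK, a kinase found mainly in B cells, showed a difference between lines of 1.27 (SE 0.12, 95% CI 1.03 to 1.52, adjusted p = 1.51e-07), a 2.42-fold higher level in SU-DHL-4. It read 9.94, 10.03 and 9.87 with DMSO in SU-DHL-4 and 8.63, 8.99 and 8.41 with DMSO in DG-75. All 12 arrays of SU-DHL-4, from 9.58 to 10.34, lay above all 12 of DG-75, from 8.41 to 9.07.

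Within SU-DHL-4, BLK lay above DMSO with Ento and below it with AZD. Its level was 10.27, 10.34 and 10.13 with Ento, 9.64, 9.86 and 9.58 with AZD, and 10.08, 10.09 and 9.96 with Ento+AZD. The Ento arrays were all above, and the AZD arrays all below, those with DMSO, and the Ento+AZD arrays overlapped the DMSO arrays. The change was 0.29 with Ento (95% CI 0.01 to 0.58, adjusted p = 0.559), -0.25 with AZD (95% CI -0.54 to 0.03, adjusted p = 0.486) and 0.10 with Ento+AZD (95% CI -0.19 to 0.38, adjusted p = 0.815). None passed the test, and BLK was the 1 of 7 kinases without overlap in the Ento and in the AZD comparison of SU-DHL-4, against 13.4% and 15.7% of all rows. In DG-75 the BLK changes were 0.11 with Ento, -0.003 with AZD and 0.24 with Ento+AZD, with adjusted p of 1, 0.997 and 0.44.

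FYN, which works beside LCK in T cells and beside LYN in B cells, was lower in SU-DHL-4. With DMSO it read 6.65, 7.04 and 6.77 in SU-DHL-4 and 7.84, 7.65 and 7.68 in DG-75. The highest SU-DHL-4 array of any treatment, 7.23, lay below the lowest DG-75 array, 7.35. The DMSO difference was -0.90 (SE 0.18, 95% CI -1.28 to -0.53, adjusted p = 0.00109), past the adjusted p and under the 2-fold minimum. It reached -1.02 and was called without SU-DHL-4 DMSO replicate 2.

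No FYN change with treatment passed the test. With AZD in SU-DHL-4 FYN read 6.31, 6.99 and 7.23, the widest group of this gene (SD 0.47), and the change was 0.03 (95% CI -0.41 to 0.46, adjusted p = 0.978). With Ento+AZD it was 0.01 (95% CI -0.42 to 0.45, adjusted p = 0.985). In DG-75 the 3 Ento+AZD arrays, 7.64, 7.55 and 7.55, lay just below those with DMSO, a change of -0.14 (95% CI -0.47 to 0.18, adjusted p = 0.711).

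FGR arrays with Ento+AZD lay below those with DMSO in both lines, short of the test in each. In DG-75 it read 7.76, 7.58 and 7.85 with DMSO, 7.83, 7.65 and 7.72 with Ento, and 7.68, 7.76 and 7.72 with AZD. With Ento+AZD it read 7.37, 7.03 and 7.30, below all the other 9 arrays of the line. The change was -0.50 (SE 0.13, 95% CI -0.78 to -0.21, adjusted p = 0.0756), lower in 3 of 3 arrays, and against AZD alone it was -0.49 (95% CI -0.78 to -0.20, adjusted p = 1). The remainder over the sum of the single-agent changes was -0.49 (95% CI -0.90 to -0.09, adjusted p = 1).

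In SU-DHL-4 the FGR level was 6.17, 6.56 and 6.61 with DMSO and 6.05, 5.43 and 5.96 with Ento+AZD. The groups did not overlap. The change was -0.63 (SE 0.19, 95% CI -1.04 to -0.22, adjusted p = 0.122). With Ento alone it was -0.39 (adjusted p = 0.602) and with AZD alone -0.31 (adjusted p = 0.566). Neither line passed the test on its own, and the lines' responses to Ento+AZD differed by -0.13 (95% CI -0.61 to 0.35, adjusted p = 0.969). Averaged over both lines, a comparison added after the data were seen, the FGR change with Ento+AZD was -0.56 (SE 0.11, 95% CI -0.80 to -0.32, adjusted p = 0.00378). It was lower in 6 of 6 same-numbered pairs, short of the 2-fold minimum, in a comparison where 9% of all rows passed the adjusted p at any fold.

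FGR also marked the lines. In the DMSO arrays the log2 difference of SU-DHL-4 from DG-75 was -1.28 (SE 0.16, 95% CI -1.62 to -0.94, adjusted p = 8.66e-06), a 2.43-fold lower level. Every SU-DHL-4 array, at most 6.61, lay below every DG-75 array, at least 7.03.

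Between the DMSO arrays of the lines 2 of the 6 kinases other than LCK were called (BLK higher and FGR lower in SU-DHL-4), against 7.26% of all rows, 3.13% higher and 4.13% lower. At any fold 5 of 6 passed the adjusted p, against 19.2% of all rows, and for 5 of 6 the arrays of the lines did not overlap, against 33.3% of all rows. YES1 was the kinase whose arrays overlapped.

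**Figure D3:**
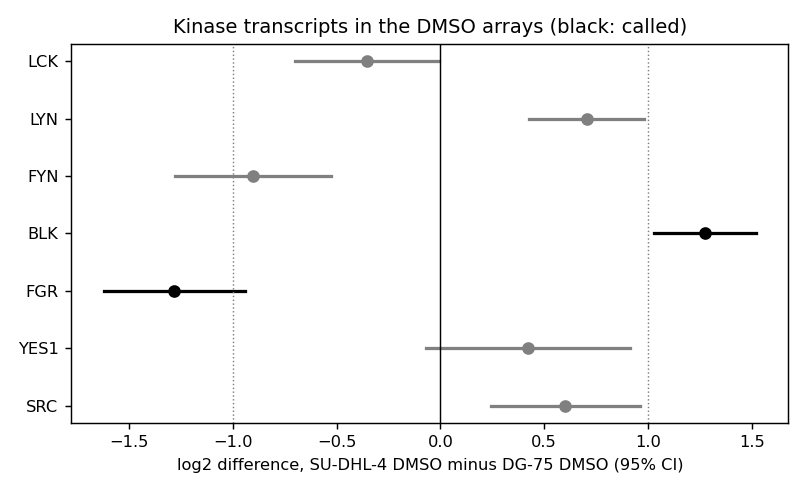
Log2 difference between SU-DHL-4 and DG-75 in the DMSO arrays (horizontal axis; 3 arrays a line) for the 7 kinases, with 95% confidence intervals; black marks the genes called by adjusted p and fold change. BLK lies 1.27 higher in SU-DHL-4, and FGR lies lower, at -1.28.

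YES1 and SRC, the members made in most tissues, had no change past the test. All their values lay in the range of the T-cell markers under the array median, so that their differences may be compressed, and whether the transcripts were present is not known. YES1 in SU-DHL-4 read 3.31, 3.22 and 3.93 with DMSO, 2.88, 3.40 and 3.13 with Ento, and 2.80, 3.54 and 3.26 with AZD. With Ento+AZD it read 3.65, 4.43 and 4.05, above all the Ento and all the AZD arrays and overlapping those with DMSO. The change was 0.56 against DMSO (95% CI 0.12 to 0.99, adjusted p = 0.215), 0.91 against Ento (95% CI 0.47 to 1.34, adjusted p = 0.0974) and 0.84 against AZD (95% CI 0.41 to 1.28, adjusted p = 0.369). The remainder over the sum of the single-agent changes was 1.19 (95% CI 0.58 to 1.81, adjusted p = 0.96). In DG-75 the Ento+AZD change of YES1 was -0.34 (95% CI -0.87 to 0.19, adjusted p = 0.561) with 2.80, 2.38 and 3.004 against 3.33, 2.71 and 3.15 with DMSO.

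SRC, the kinase that gave the family its name, read 3.51, 3.20 and 3.51 with DMSO in DG-75, 3.67, 3.66 and 3.74 with AZD, and 2.82, 3.33 and 3.04 with Ento+AZD. The AZD arrays lay above, and the Ento+AZD arrays below or within, those with DMSO. Ento+AZD differed from AZD by -0.63 (95% CI -0.98 to -0.28, adjusted p = 1), and the change with AZD was 0.28 (95% CI -0.07 to 0.64, adjusted p = 0.484). In SU-DHL-4 SRC read 3.59, 3.86 and 4.57 with DMSO and 3.35, 3.65 and 3.64 with AZD, overlapping groups with a change of -0.46 (95% CI -0.85 to -0.07, adjusted p = 0.355). The DMSO difference between the lines was 0.60 (95% CI 0.24 to 0.96, adjusted p = 0.0174). It was 0.37 with an adjusted p of 0.183 without SU-DHL-4 DMSO replicate 3, the array at 4.57, and 0.45 with an adjusted p of 0.13 without DG-75 DMSO replicate 2, the array at 3.20.

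In DG-75 the arrays with Ento+AZD did not overlap those with DMSO for 3 of the 6 kinases other than LCK (LYN, FYN and FGR), against 18.8% of all rows. Against Ento alone they numbered 2 of 6 (LYN and FGR), against 18.4%, and against AZD alone 2 of 6 (FGR and SRC), against 7.55%. In SU-DHL-4 the members without overlap numbered 2 of 7 against DMSO (LCK and FGR), 4 of 7 against Ento (LCK, BLK, YES1 and SRC) and 2 of 7 against AZD (BLK and YES1), where 20.8%, 12.8% and 9.18% of all rows did not overlap.

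Calls of Ento+AZD against the single agents numbered 0 of the 6 in DG-75, in comparisons that called 0.657% of all rows against Ento and 0% against AZD, and 0 of 7 in SU-DHL-4, where 0.0821% and 0.0274% of all rows were called. The 168 rows called against Ento in DG-75 became 0 with the compared groups alone and 389 without DG-75 Ento replicate 3. In SU-DHL-4 the 21 rows called against Ento ran from 0 to 107 over the alternatives that kept the minimum fold change. The 7 called there against AZD ran from 1 to 22, the latter without SU-DHL-4 AZD replicate 2. At an unadjusted p under 0.05 there were 2 of 7 against Ento (LCK and YES1) and 2 of 7 against AZD (BLK and YES1) in SU-DHL-4, against 9.67% and 7.03% of all rows. In DG-75 there were 1 of 6 against Ento (FGR) and 2 of 6 against AZD (FGR and SRC), against 14.8% and 4.03%. The median change with Ento+AZD against DMSO was -0.24 over the 6 kinases in DG-75 and 0.01 over the 7 in SU-DHL-4, beside -0.07 and -0.08 over all rows.

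The responses of the lines were set against each other in a fit of all arrays, which called 0 of the 6 kinases other than LCK with Ento, AZD or Ento+AZD, where 0.00782%, 0% and 0.0352% of all rows were called. Over the alternatives that kept the minimum fold change, these 2, 0 and 9 rows ran from 1 to 3, 0 to 4 and 0 to 32. At an unadjusted p under 0.05 stood 0 of 6 with Ento, 1 of 6 with AZD (SRC) and 1 of 6 with Ento+AZD (YES1), against 4.43%, 6.16% and 6.51% of all rows. Averaged over the lines, 0 of 6 were called with Ento, AZD or Ento+AZD, where 0.0117%, 0.266% and 0.86% of all rows were called. At an unadjusted p under 0.05 stood 1 of 6 with Ento (BLK), 0 of 6 with AZD and 2 of 6 with Ento+AZD (FGR and SRC), against 6.97%, 18.2% and 21.5% of all rows.

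Over the 12 SU-DHL-4 arrays LYN and FYN gave r = 0.757, which rested on AZD replicate 1, low for both genes: over the other 11 arrays r was 0.299. In DG-75 LCK ran with FGR at r = 0.676 (0.624 to 0.757 with each array left out) and against LYN at r = -0.628 (-0.691 to -0.564), and in SU-DHL-4 the same pairs gave 0.307 and 0.248. These arrays share their treatments and their array-wide variation, and the values are descriptions.

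Of the more distant relatives of the family, 3 kinases of epithelial and other tissues were listed. FRK, PTK6 and SRMS had changes from -0.34 to 0.15 with Ento+AZD in DG-75 and from -0.41 to -0.24 in SU-DHL-4, none past the test.

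**Figure D4:**
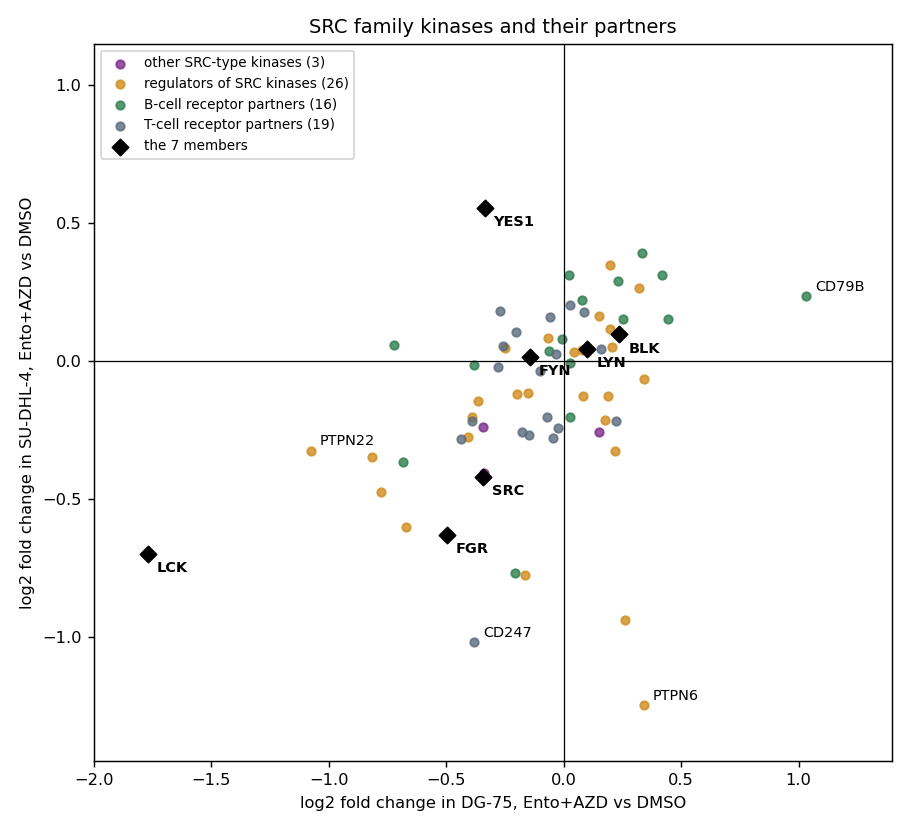
Log2 fold change with Ento+AZD against DMSO in DG-75 (horizontal axis) and SU-DHL-4 (vertical axis) for the 7 kinases (diamonds) and 4 lists of related genes (circles), each from 3 arrays a group. LCK lies alone at the far left (-1.77 in DG-75 and -0.70 in SU-DHL-4), apart from the listed regulators and receptor partners.

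The regulators of the family, 26 measured genes, include CSK and the phosphatases PTPRC, PTPN22 and PTPN6. With Ento+AZD 0 were called in DG-75 (2 were lower past the adjusted p at any fold, which 2.39% of all rows passed) and 1 was called lower in SU-DHL-4 (1.09% of all rows). This was PTPN6, the phosphatase SHP-1 that opposes signals of the B-cell receptor, which read 5.97, 6.53 and 5.44 with DMSO and 4.98, 4.78 and 4.44 with Ento+AZD in SU-DHL-4. The groups stood apart, and PTPN6 fell by 1.25 on the log2 scale (SE 0.20, adjusted p = 0.00911). Its Ento+AZD values lay under the medians of their arrays, where differences may be compressed. In DG-75 the mean of PTPN6 was higher with Ento+AZD (6.50) than with DMSO (6.16), and the groups overlapped. The call was lost without the replicate number in the fit (adjusted p = 0.144) and without SU-DHL-4 DMSO replicate 2 (adjusted p = 0.0784) or Ento+AZD replicate 2 (adjusted p = 0.0512).

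With Ento+AZD, CSK changed by 0.08 in DG-75 and 0.04 in SU-DHL-4 (adjusted p = 0.831 and 0.938), and PTPRC by 0.20 and 0.12 (adjusted p = 0.471 and 0.788). Past the adjusted p at any fold, beside PTPN6, were DOK2 (-0.94) and SIT1 (-0.78) in SU-DHL-4, 3 of 26 against 2.36% of all rows, and DOK3 (-0.78) and UBASH3B (-0.67) in DG-75, adaptors and a phosphatase that restrain antigen receptor signals. PTPN22, a phosphatase that acts on LCK itself, changed by -1.08 in DG-75 (adjusted p = 0.0664) and by -0.32 in SU-DHL-4 (adjusted p = 0.568). The median of the regulators with Ento+AZD was 0.06 in DG-75 and -0.13 in SU-DHL-4, near the -0.07 and -0.08 of all rows.

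Of 16 partners and substrates at the B-cell receptor, 1 was called with Ento+AZD in DG-75, and it was higher (0.125% of all rows). CD79B, the receptor chain that SRC family kinases phosphorylate, read 9.03, 8.84 and 9.13 with DMSO and 10.27, 10.08 and 9.75 with Ento+AZD in that line. The groups did not overlap, and the rise was 1.03 (SE 0.19, 95% CI 0.62 to 1.44, adjusted p = 0.0227). It lost its call without any of the 3 DMSO arrays or without Ento+AZD replicate 1 or 2 (adjusted p from 0.0646 to 0.174). Its partner chain CD79A changed by 0.44 (adjusted p = 0.147) and SYK by 0.34 (adjusted p = 0.278).

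LAX1 (-0.72) and TEC (-0.69) were lower in DG-75 past the adjusted p and under the 2-fold minimum. Beside CD79B they were the listed genes past it there, where 2.39% of all rows passed. In SU-DHL-4 0 of the 16 were called with Ento+AZD (1.19% of all rows), and 1, CD72 (-0.77, adjusted p = 0.0347), passed the adjusted p, as 2.36% of all rows did.

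Of 19 partners of LCK at the T-cell receptor, 0 were called in DG-75 (0.833% of all rows) and 1 was called lower in SU-DHL-4 (1.09% of all rows) with Ento+AZD. CD247, the zeta chain that LCK phosphorylates, read 5.36, 5.50 and 5.66 with DMSO and 4.54, 4.45 and 4.49 with Ento+AZD in SU-DHL-4. The Ento+AZD values lay in the range of the T-cell markers under the array median. The groups stood apart and CD247 fell by 1.02 on the log2 scale (adjusted p = 0.0121), a size that low levels may compress. The adjusted p rose to between 0.0643 and 0.0784 without SU-DHL-4 DMSO replicate 2 or 3 or without Ento+AZD replicate 2 or 3, and the change shrank to -0.89 and -0.90, under the 2-fold minimum, with array medians subtracted or quantile normalization. CD4, the coreceptor that carries LCK in helper T cells, changed by -0.26 in DG-75 and 0.06 in SU-DHL-4, without passing the test. The median of the list was -0.10 in DG-75 and -0.04 in SU-DHL-4.

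Between the DMSO arrays of the lines, 4 of 26 regulators, 8 of 16 B-cell receptor partners and 2 of 19 T-cell receptor partners were called, against 7.26% of all rows. FCGR2B, the inhibitory Fc receptor whose tail LYN phosphorylates, was 4.92 higher in SU-DHL-4 (adjusted p = 2.82e-11), and BANK1, a scaffold that binds LYN, was 4.60 higher (adjusted p = 2.09e-10). LAX1, an adaptor phosphorylated by SRC and SYK kinases, was lower there (log2 difference -4.15, adjusted p = 2.52e-11). In the group where they were low, FCGR2B (3.04 to 4.54), BANK1 (2.50 to 3.71) and LAX1 (2.41 to 3.35) lay in the range of the T-cell markers under the array median, where differences may be compressed. SIT1 (1.81), DOK2 (2.11), SLA (1.71), CD72 (1.78), VAV2 (1.58), CD22 (1.29), CD79B (1.16) and LCP2 (1.07) were higher in SU-DHL-4, and UBASH3B (-1.42), TEC (-1.31) and TXK (-2.22) were lower. DOK2 in DG-75 and TXK in SU-DHL-4 also read under 4.72 on all DMSO arrays, in the same range. LCP2 fell short of a call without DMSO replicate 2 of DG-75 (0.84) or of SU-DHL-4 (0.97).

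Genes that ran most like LCK over the 12 DG-75 arrays were sought among 12579 symbols of above-median level. CKS1B, a cofactor of cyclin-dependent kinases, came first at r = 0.989, followed by TOPBP1 (0.987), CHEK1 (0.985), CAMTA1 (0.985) and MCM6 (0.983). TOPBP1 and CHEK1 act in the DNA damage checkpoint, and MCM6 is a subunit of the replicative helicase. Most opposed were TXNIP, an inhibitor of thioredoxin (-0.968), ITFG2 (-0.965) and catalase, CAT (-0.959). Over the 12 SU-DHL-4 arrays the same genes gave r of 0.263, 0.378, 0.455, 0.424 and 0.386, and -0.410, -0.041 and -0.792. These genes were picked for their likeness, all points share the treatments, and no p is given.

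BLK in SU-DHL-4 ran most like SLC2A5, a fructose transporter (r = 0.977), GLIPR1 (0.969), DGKA (0.965), SEPTIN6 (0.961) and BLNK, the linker that carries SYK signals in B cells (0.955), over 12 arrays. In DG-75 GLIPR1 gave -0.760 with BLK and BLNK gave 0.456. FYN in SU-DHL-4 ran most like FBXW2 (0.935), ASCC2 (0.928), RRN3 (0.926), CDK12 (0.913) and PRPF31 (0.909), with r from -0.158 to 0.422 in DG-75. Without AZD replicate 1, the array low for FYN, those 5 gave 0.796 to 0.905 over 11 arrays of SU-DHL-4. These descriptions carry the same limits.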

How the data were processed

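RNA of 24 samples of SU-DHL-4 and DG-75 cells was measured on Human Clariom D arrays. The authors deposited log2 expression values, RMA normalized with limma and mapped to gene symbols through a transcript cluster annotation, in 1 table with no unused columns of samples (0). The build and release behind that annotation are not given in the sources used here. For the promoter windows, RefSeq on GRCh38.p14 was used.

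All 25575 rows were fitted with limma 3.58.1 in R 4.3.3 (lmFit, contrasts.fit, eBayes), each line on its own over 12 arrays with the replicate number as a block. The study's model held both lines, with terms for line and batch, and its batches are not defined in the sources used here, so the replicate number was taken in their place. Differences between lines were estimated from both lines together, on 24 arrays, with the replicate number nested in the line. Benjamini-Hochberg adjustment ran over all rows of a comparison. A call needed an adjusted p under 0.05 and a change over 2-fold. Intervals are 95% confidence intervals of limma, and the number of arrays, 3 a group, limits the precision. Tested on simulated data with 200 genes of 25575 changed by 1.5 on the log2 scale, the fit called 91% of them in SU-DHL-4 (Ento+AZD against DMSO) and 86.5% of those in DG-75. The simulated noise was normal and independent, without a replicate effect. Every tested kinase changed by less than 1.5 with treatment, so these shares do not give the chance of a call for the kinases.

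The kinases and the lists of related genes were chosen with earlier results of these data known. LCK is left out of every count that draws on DG-75. Genes named are the 7 kinases, list members that were called and up to 4 others per list for their role, and the symbols most correlated with LCK, BLK and FYN. Some listed genes are not reported here. 26 of 27 listed regulators were in the table. The mean over both lines was added after the data were seen. The alternatives left the replicate number out, pooled both lines in the fit or fitted the compared groups alone. Others were omission of rows under the median, quantile normalization, subtraction of array medians, a trended robust prior, no minimum fold change and omission of each array. No 2 arrays were identical.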

Additional observations from a re-analysis of the deposited data

Results flagged for a closer look

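With Ento against DMSO, LCK was higher in all 3 same-numbered pairs of SU-DHL-4 and lower in all 3 of DG-75. The difference between the lines' responses was 0.42 (95% CI -0.07 to 0.91), and it is given without a test because LCK in DG-75 chose the family.

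With AZD against DMSO, SRC was lower in all 3 pairs of SU-DHL-4 and higher in all 3 of DG-75. The difference was -0.75 (SE 0.24, 95% CI -1.25 to -0.24, limma adjusted p = 0.58), which did not pass the test. SRC read at low levels, where differences may be compressed.

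With Ento+AZD against DMSO, YES1 was higher in all 3 pairs of SU-DHL-4 and lower in all 3 of DG-75. The difference was 0.89 (SE 0.33, 95% CI 0.20 to 1.59, limma adjusted p = 0.593), which did not pass the test either. YES1 read at low levels as well.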

How the results depend on the processing

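The counts leave out LCK wherever DG-75 enters, since it chose the set. The number of kinases called was within 1.5 times its value under every alternative but the omission of the minimum fold change. With it omitted the count rose from 0 to 1 with Ento+AZD in SU-DHL-4, from 0 to 1 with Ento+AZD over both lines and from 2 to 5 between the DMSO arrays of the lines, where it was 2 to 3 with an array left out. The change of LCK in DG-75 ran from -1.42 to -1.11 with AZD and from -1.88 to -1.59 with Ento+AZD over all alternatives.

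Of 1839 tested values of single kinases under alternatives, 1719 kept direction and side of the threshold, 0 lost and 6 gained a call, 0 called values turned, and 114 values without a call changed sign. Omission of rows under the median left no value for YES1 and SRC. A second row per kinase could not be tried, since each had 1.

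Same-numbered arrays ran together more than others in SU-DHL-4 (median r of deviations 0.15 against -0.07) and slightly more in DG-75 (0.04 against -0.01). Above 0.1 correlated 12 of 18 same-numbered pairs in SU-DHL-4 (-0.11 to 0.39) and 7 of 18 in DG-75 (-0.35 to 0.34). In SU-DHL-4 9 of 12 arrays correlated best with their own number, and in DG-75 8 of 12 did. Not every pair passed 0.1, but so strict a criterion cannot show that the arrays were unpaired, and the question stays unsettled. Without the replicate block the kinases called numbered 2 between the DMSO arrays of the lines and 0 in every other comparison, as with it, while the adjusted p of LCK with Ento+AZD in SU-DHL-4 went from 0.0439 to 0.15. Over all rows, the count without the block was 45 against 304 with Ento+AZD in SU-DHL-4, 9 against 46 with AZD in that line, 1 against 13 with Ento, 0 against 21 for Ento+AZD against Ento and 208 against 213 with Ento+AZD in DG-75. Over all alternatives with the fold minimum kept, the count ran from 45 to 350 for Ento+AZD in SU-DHL-4.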
